A study of Mus musculus with 12 samples.

Results

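The genes described here are 10 members of the Notch pathway, listed by symbol among the 55367 genes of a count table: the receptors Notch1, Notch2 and Notch3, the ligands Jag1, Jag2 and Dll1, the glycosyltransferase Lfng, the target genes Hes1 and Hey1, and Hes6. All 10 were found in the table, and all 10 were among the 17076 genes with enough counts to test. Their levels were measured by RNA sequencing in mouse tongue organoids, epithelial cultures grown in a gel, of the lines CVP (circumvallate papilla) and FoP (foliate papillae), both taste-bearing structures of the posterior tongue. The comparison asks what changes in these cultures when Foxe1, a gene for a forkhead transcription factor, is knocked out.

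The CVP knock-out group was clones 2.10 and 2.9, labelled Foxe1 knock-out and genetically modified, and its control was a CVP culture labelled WT (wild type). The FoP knock-out group was clones 2.5 and 2.4 with the same labels, and its control was a FoP culture labelled WT. Each of these 6 cultures gave 2 libraries, so each line had 4 knock-out libraries and 2 wild type libraries. The labels give no agent, age or strain, list the cell type as various and do not say how Foxe1 was altered. They call no wild type library a clone, and genotype and the derivation of clones cannot be told apart. Duplicates share a culture, so the p-values measure the spread between these libraries, part of which may be technical, and each knock-out group rests on 2 clones.

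Totals were 59260920 to 73568640 counts per library, and 9 of the 10 members had 300 counts or more in every library. Hey1, the lowest, had 64 to 1251 counts. The transcript of Foxe1 itself did not separate the groups, as in each line 1 clone lay below wild type and the other above it. Clone 2.10 had 487 and 547 counts and clone 2.9 had 1527 and 1432, against 1049 and 1144 in CVP wild type. Clone 2.5 had 707 and 660 counts and clone 2.4 had 1471 and 1292, against 1124 and 989 in FoP wild type. A transcript count checks no alteration that leaves the transcript in place, so "knock-out" stands for the label. The epithelial keratins Krt5 and Krt14 were at 1687 CPM or more in every library (CPM, counts scaled to a common library size). Markers of other cell types were partly present. Of 8 immune markers 3 had enough counts to test, of 9 endothelial markers 3 and of 8 mural markers 5, with levels given further below. Others on these lists were at 0 counts in all 12: Ptprc of leukocytes, Cldn5 and Erg of endothelium and Kcnj8 of pericytes.

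Notch receptors are single-pass membrane proteins that are activated by Delta and Jagged ligands on a neighbouring cell. Endocytosis of the ligand pulls on the receptor, ADAM proteases and gamma-secretase then cut it, and the freed intracellular domain joins the DNA-binding protein RBPJ and a Mastermind coactivator to turn on target genes such as those of the Hes and Hey families. In stratified epithelia the pathway is known for its part in the step from basal to suprabasal cells, and in taste buds for its part in the choice between cell types. Fringe enzymes such as Lfng add a sugar to receptors and change how they respond to Delta and Jagged ligands.

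Receptor and ligand transcripts did not all move in the same direction in knock-out organoids. Notch1 was lower in the knock-out libraries of both lines, while Notch2, Jag1, Lfng and Hes6 were higher in both. In the CVP line 5 members were higher (Notch2, Notch3, Jag1, Lfng and Hes6), 2 were lower (Notch1 and Dll1) and 3 were not called (Jag2, Hes1 and Hey1), at an adjusted p under 0.05 in edgeR's quasi-likelihood test. In the FoP line 5 were higher (Notch2, Jag1, Lfng, Hes6 and Hes1), 2 were lower (Notch1 and Hey1) and 3 were not called (Notch3, Jag2 and Dll1). Of all tested genes, 46.4% were called in the CVP line (23.5% higher, 22.9% lower) and 28.8% in the FoP line (13.5% higher, 15.3% lower), so 7 of 10 called stands beside a high background. The libraries of the groups did not overlap for 9 of 10 members in the CVP line, beside 61.7% of tested genes, and for 7 of 10 in the FoP line, beside 49.7%. Across all tested genes 9.20% were higher in both lines and 10.1% were lower in both, beside 4 and 1 of the 10 members. The members' median log2 fold change was 0.20 in the CVP line and 0.24 in the FoP line, against 0.03 and 0.01 over all tested genes, and the median absolute change was 0.42 and 0.36, against 0.37 and 0.25. In a bulk library, fewer cells of a type and less RNA per cell cannot be told apart.

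**Figure D1:**
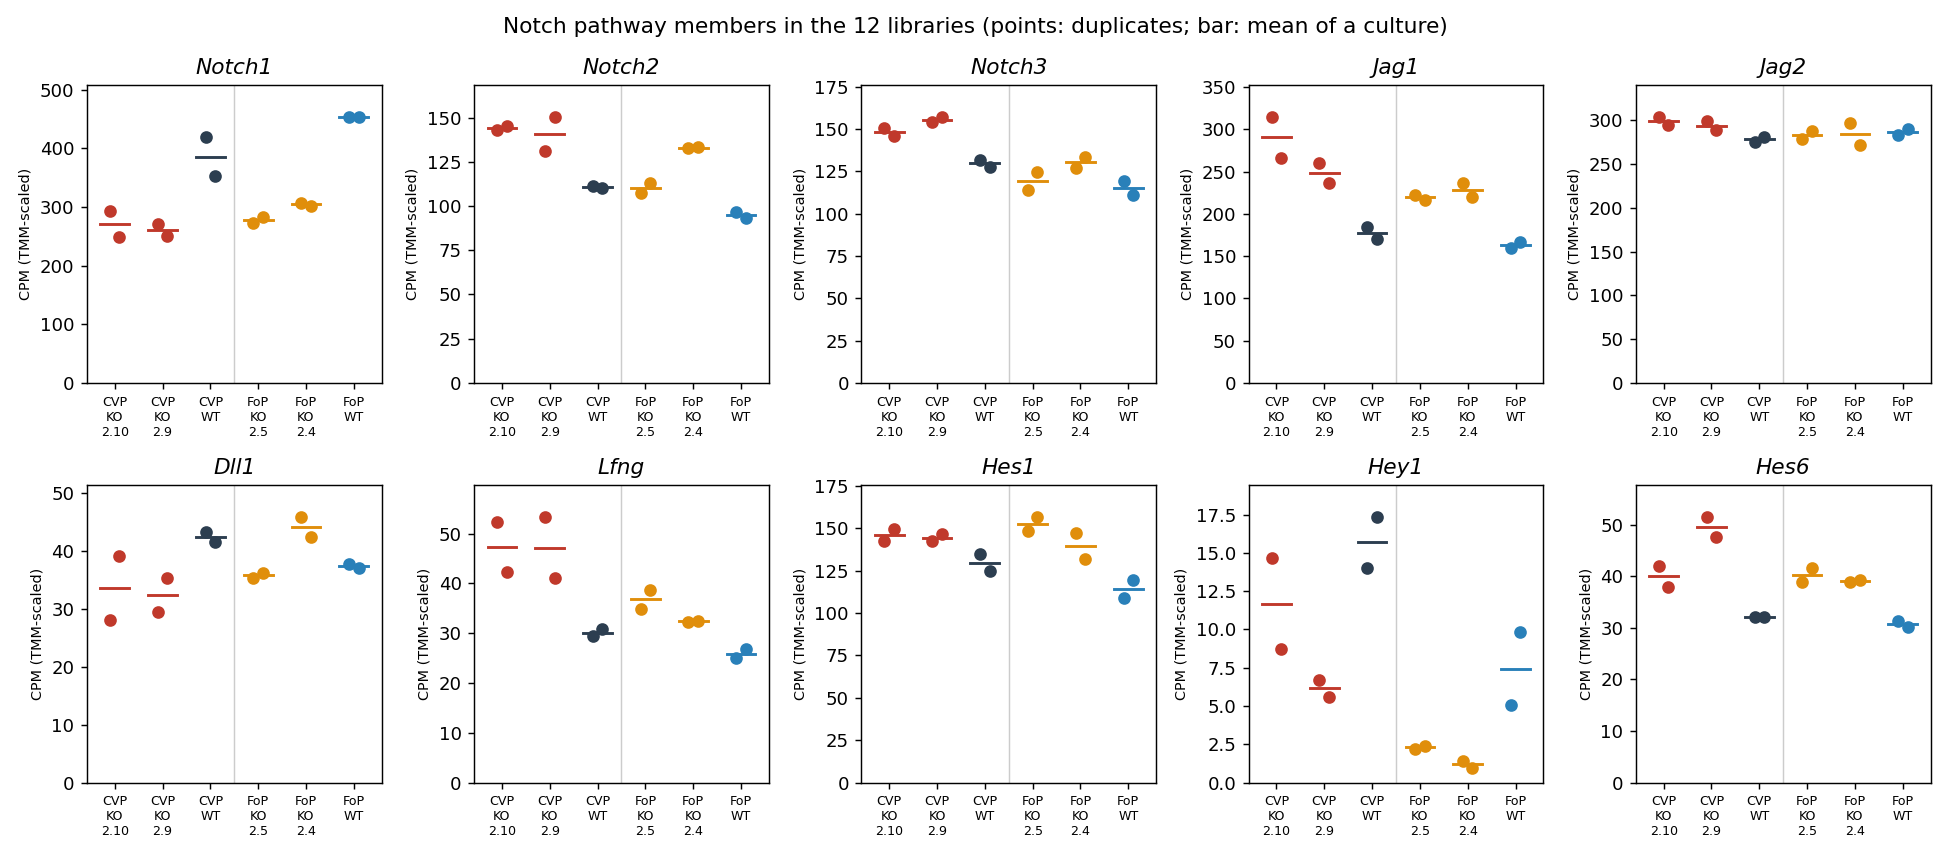
Level of each member in the 12 libraries, in CPM on a linear axis from 0 (TMM is the scaling used). Points are duplicate libraries and bars are the mean of a culture, with the knock-out clones left of the wild type of their line. Notch1 lay lower in all 8 knock-out libraries than in the wild type of the same line, and Jag1 lay higher.

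Notch1, the receptor with the highest level per length of the longest coding transcript in every group, stood at 293 and 248 CPM in clone 2.10 and 271 and 251 CPM in clone 2.9, against 419 and 352 CPM in CVP wild type. In the FoP line it stood at 273 and 283 CPM in clone 2.5 and 307 and 302 CPM in clone 2.4, against 453 and 454 CPM in wild type. All knock-out libraries of a line lay below both of its wild type libraries, which was so for 30.0% of tested genes in the CVP line and 25.8% in the FoP line. The level was 1.45-fold lower in CVP knock-out (log2 -0.54 ± 0.08, SE; edgeR adjusted p = 0.00014) and 1.56-fold lower in FoP knock-out (-0.64 ± 0.08; adjusted p = 0.000108). Notch1 was called in both lines with any 1 library or any 1 clone left out.

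Notch2, a second receptor of the same build, moved the other way. It had 143 and 145 CPM in clone 2.10 and 131 and 150 CPM in clone 2.9, against 112 and 110 CPM in CVP wild type. Clone 2.5 had 107 and 113 CPM and clone 2.4 had 133 CPM in both duplicates, against 96.7 and 93.4 CPM in FoP wild type. The groups did not overlap in either line, with all knock-out libraries above wild type, as for 31.7% of tested genes in the CVP line and 23.9% in the FoP line. Notch2 was 1.28-fold higher in each line (log2 0.36 ± 0.09 in both; edgeR adjusted p = 0.00386 in CVP and 0.00759 in FoP). Without FoP wild type duplicate 2 the FoP change was 0.33 and no longer called (adjusted p = 0.0792).

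Notch3, known in vessels as the receptor of smooth muscle and pericytes and expressed in epithelium too, showed a smaller difference. It had 151 and 146 CPM in clone 2.10 and 154 and 157 CPM in clone 2.9, against 132 and 128 CPM in CVP wild type, with no overlap. Clone 2.5 had 114 and 125 CPM and clone 2.4 had 127 and 134 CPM, against 119 and 111 CPM in FoP wild type, and here the groups overlapped. The CVP change was 0.23 ± 0.06 on the log2 scale (edgeR adjusted p = 0.00826), and it was not called without CVP wild type duplicate 2 (0.20; adjusted p = 0.0746). The FoP change was 0.12 ± 0.06 (95% interval -0.01 to 0.25; adjusted p = 0.175), and it was called without clone 2.5 (0.18; adjusted p = 0.0391) and without duplicate 1 of that clone (0.16; adjusted p = 0.0475). Of 8 mural cell markers 5 had enough counts to test, with 1 higher and 0 lower in CVP knock-out and 0 higher and 1 lower in FoP knock-out. The summed level of all 8 was 70.2 to 268 CPM in CVP knock-out, against 56.0 to 70.8 CPM in wild type, mostly Acta2, and 49.4 to 160 CPM in FoP knock-out, against 49.9 to 73.2 CPM. The mural marker Myh11 was at 0.774 CPM or less, and the part of such cells in the Notch3 values was not tested.

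Set per length, Notch1 made up a smaller part of the receptor pool in knock-out libraries. Levels per kilobase used the longest protein-coding transcript of each gene in GENCODE M21. Notch1 made up 46.2 ± 2.25% of the 3 receptors' summed CPM per kb in CVP knock-out and 60.2 ± 2.56% in CVP wild type (SD, n = 4 and n = 2). In the FoP line its share was 53.1 ± 0.855% in knock-out and 67.1 ± 0.920% in wild type, and the shares of Notch2 and Notch3 were higher in knock-out in both lines, with no overlap of the libraries for any of the 3. The sum itself was 60.5 ± 2.08 CPM per kb in CVP knock-out and 67.4 ± 5.46 in wild type, and 57.9 ± 3.83 in FoP knock-out and 71.2 ± 0.931 in wild type. Shares within a sum are not independent of each other, and they were not tested.

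**Figure D2:**
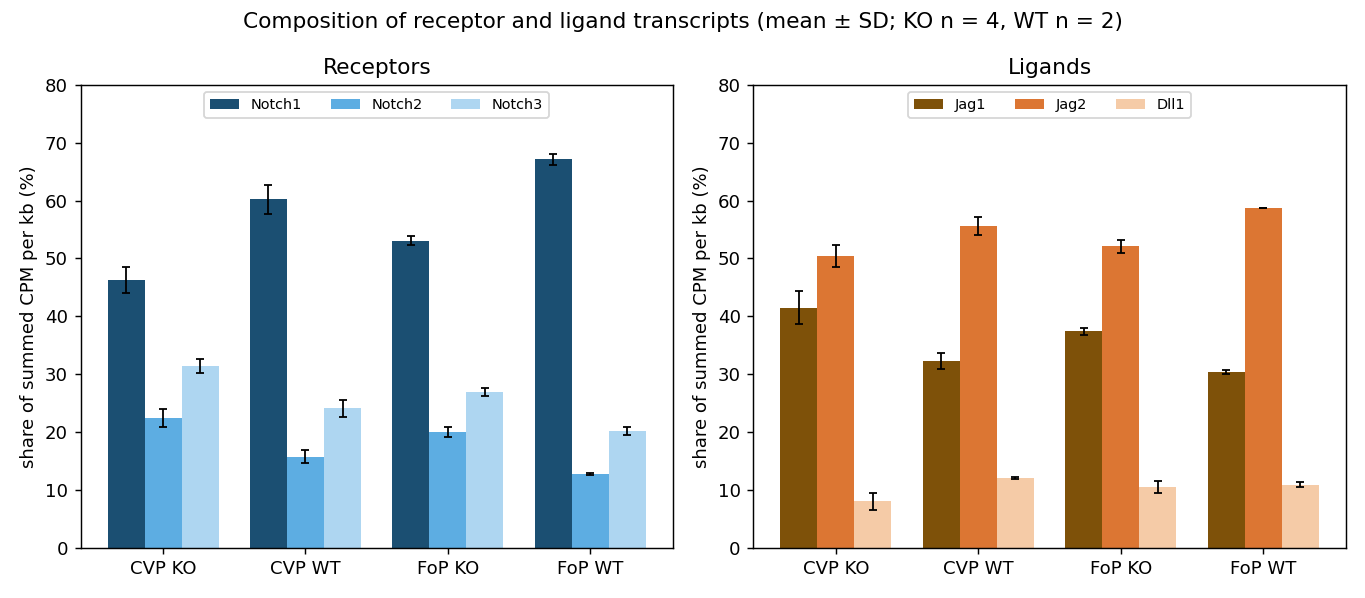
Share of each receptor (left) and each ligand (right) in its family's summed CPM per kb, in percent, as mean ± SD over 4 knock-out or 2 wild type libraries of a line. Notch1 held a smaller share of the receptors, and Jag1 a larger share of the ligands, in knock-out than in wild type in both lines.

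Jag1, a Jagged ligand, was higher in both lines. It had 315 and 266 CPM in clone 2.10 and 260 and 236 CPM in clone 2.9, against 184 and 171 CPM in CVP wild type. Clone 2.5 had 223 and 216 CPM and clone 2.4 had 237 and 220 CPM, against 159 and 167 CPM in FoP wild type. Every knock-out library lay above both wild type libraries of its line. Jag1 was 1.52-fold higher in CVP knock-out (log2 0.60 ± 0.09; edgeR adjusted p = 0.000157) and 1.37-fold higher in FoP knock-out (0.46 ± 0.09; adjusted p = 0.00221), and both calls held with any 1 library or clone left out.

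Jag2, the other Jagged ligand and, of the 3 ligands, the one with the highest level per length in all 4 groups, was not called in either line. It had 304 and 294 CPM in clone 2.10 and 299 and 289 CPM in clone 2.9, against 275 and 281 CPM in CVP wild type, so its groups did not overlap although the change was 0.09 ± 0.05 (95% interval -0.01 to 0.19; edgeR adjusted p = 0.139). Clone 2.5 had 278 and 287 CPM and clone 2.4 had 297 and 271 CPM, against 283 and 290 CPM in FoP wild type. The groups overlapped there, and the FoP change of -0.02 ± 0.05 had an interval of -0.12 to 0.09 (adjusted p = 0.835).

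Dll1, a Delta ligand, had 28.1 and 39.2 CPM in clone 2.10 and 29.5 and 35.2 CPM in clone 2.9, against 43.2 and 41.5 CPM in CVP wild type. Clone 2.5 had 35.3 and 36.3 CPM and clone 2.4 had 45.9 and 42.4 CPM, against 37.8 and 37.0 CPM in FoP wild type. In the CVP line the knock-out libraries lay below wild type, while in the FoP line clone 2.5 lay below and clone 2.4 above. The CVP change was -0.36 ± 0.13 (edgeR adjusted p = 0.0434). This call lay near the threshold: it was lost in limma voom with culture as a block (adjusted p = 0.0688), without clone 2.9 (0.126), without either CVP wild type library (0.193 without duplicate 1 and 0.118 without duplicate 2), without either FoP wild type library (0.0591 and 0.0590), without duplicate 1 of clone 2.9 (0.0939) or of clone 2.10 (0.0867) and without duplicate 2 of clone 2.4 (0.0539). In the FoP line the change was 0.10 ± 0.13 (95% interval -0.20 to 0.39; adjusted p = 0.647).

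The ligand sum per length was 115 ± 6.24 CPM per kb in CVP knock-out and 98.0 ± 1.22 in wild type, and 107 ± 4.42 in FoP knock-out and 95.6 ± 1.78 in wild type. Jag1 made up 41.5 ± 2.80% of it in CVP knock-out and 32.3 ± 1.33% in wild type, and 37.4 ± 0.596% in FoP knock-out and 30.4 ± 0.402% in wild type (SD, n = 4 and n = 2 per line). The share of Jag2 was lower by the same measure, at 50.4 ± 1.85% in CVP knock-out and 55.7 ± 1.52% in wild type, although its own level was not called.

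Lfng, lunatic fringe, which lengthens the O-fucose sugar on the receptors' EGF repeats, was higher in both lines. It had 52.3 and 42.3 CPM in clone 2.10 and 53.4 and 41.0 CPM in clone 2.9, against 29.4 and 30.8 CPM in CVP wild type. Clone 2.5 had 35.0 and 38.6 CPM and clone 2.4 had 32.4 CPM in both duplicates, against 25.0 and 26.8 CPM in FoP wild type. The groups did not overlap in either line, and the level was 1.57-fold higher in CVP knock-out (log2 0.65 ± 0.11; edgeR adjusted p = 0.000504). In FoP knock-out the change was 0.42 ± 0.11 (adjusted p = 0.0150), and that call was lost without FoP wild type duplicate 1 (adjusted p = 0.133) or duplicate 2 (0.0623), without clone 2.5 (0.0779) and in limma voom (0.0775).

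The promoters of Lfng, Jag1 and Notch1 are shown because these members differed in both lines and stand for the enzyme, a ligand and a receptor. The stretches are from RefSeq (GRCm38.p6), from 250 bases before the gene's RefSeq start up to the first base that GENCODE M21 calls exonic, and run 5′ to 3′ on the gene's own strand. The RefSeq start of Notch1 lies inside the gene as GENCODE M21 draws it, so the stretch printed for Notch1 is upstream of that start but within the GENCODE gene. Lfng is at chr5:140607091-140607319 (plus strand), Jag1 at chr2:137116645-137116770 (minus strand) and Notch1 at chr2:26503825-26504072 (minus strand). Capitals mark GTGGGAA, the core of the site that RBPJ binds.
Lfng: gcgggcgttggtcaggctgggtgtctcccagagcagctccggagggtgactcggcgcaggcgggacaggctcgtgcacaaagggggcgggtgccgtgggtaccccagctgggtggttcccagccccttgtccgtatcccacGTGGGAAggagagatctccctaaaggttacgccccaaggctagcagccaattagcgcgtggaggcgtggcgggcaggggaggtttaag
Jag1: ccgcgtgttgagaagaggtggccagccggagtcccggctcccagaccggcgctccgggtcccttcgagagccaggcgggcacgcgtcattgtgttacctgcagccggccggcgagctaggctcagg
Notch1: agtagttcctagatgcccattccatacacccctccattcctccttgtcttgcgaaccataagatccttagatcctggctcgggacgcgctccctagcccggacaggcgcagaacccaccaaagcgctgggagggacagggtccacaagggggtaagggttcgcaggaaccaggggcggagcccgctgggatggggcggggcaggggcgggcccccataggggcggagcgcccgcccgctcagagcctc

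The windows of 250 bases before the start were searched on both strands for GTGGGAA and for the forkhead core GTAAACA, which do not overlap each other. Windows were at hand for 8 members (Notch1, Notch2, Notch3, Jag1, Jag2, Dll1, Hes6 and Lfng). Of all 32851 promoter windows of this length, 5.42% held GTGGGAA and 3.17% held GTAAACA. Among the members 1 window held the RBPJ core, that of Lfng, on the sense strand with its first base 109 bases before the start, and 0 of 10 windows (Dll1 and Hes6 have 2 each) held the forkhead core. These letters describe the windows and show neither binding nor its absence.

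Hes1, a transcriptional repressor and the best known Notch target, was the member with the highest level per length in every group. It had 142 and 149 CPM in clone 2.10 and 142 and 147 CPM in clone 2.9, against 135 and 125 CPM in CVP wild type. Clone 2.5 had 148 and 157 CPM and clone 2.4 had 147 and 132 CPM, against 109 and 119 CPM in FoP wild type. All knock-out libraries lay above the wild type of their line. Hes1 was 1.28-fold higher in FoP knock-out (log2 0.36 ± 0.07; edgeR adjusted p = 0.00159). In the CVP line the change was 0.16 ± 0.07 (95% interval 0.02 to 0.31; adjusted p = 0.0584). It passed without clone 2.4 (0.0346), without clone 2.5 (0.0496) and without duplicate 2 of either clone (0.0285 and 0.0452). With all CVP libraries kept, it also passed in the fit of 6 cultures (0.0268), under a stricter count filter (0.0403) and with the CVP line fitted alone (0.0449).

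Hey1, a repressor of the related Hey family, had the largest fold change among the members and the largest spread. Clone 2.5 had 2.22 and 2.38 CPM and clone 2.4 had 1.44 and 0.991 CPM, against 5.06 and 9.82 CPM in FoP wild type. The FoP groups did not overlap, and the level was 4.23-fold lower in knock-out (log2 -2.08 ± 0.44; edgeR adjusted p = 0.00603). Without FoP wild type duplicate 2 the change was -1.53 and not called (adjusted p = 0.0754). In the CVP line clone 2.10 had 14.6 and 8.71 CPM and clone 2.9 had 6.70 and 5.62 CPM, against 14.0 and 17.4 CPM in wild type. Duplicate 1 of clone 2.10 lay between the wild type libraries, and the change was -0.81 ± 0.42 (95% interval -1.76 to 0.13; adjusted p = 0.146). Without clone 2.10 it was -1.35 (adjusted p = 0.0276), and without duplicate 1 of that clone -1.16 (adjusted p = 0.0270). It was also called with all libraries in the fit of 6 cultures (-0.89; adjusted p = 0.0219).

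The Notch targets Hes1 and Hey1 thus did not move together: in FoP knock-out Hes1 was higher and Hey1 lower, both past the threshold. Hes6, a Hes family member that in frog and mouse is known to oppose Hes1 rather than to follow Notch, had 42.0 and 37.9 CPM in clone 2.10 and 51.6 and 47.6 CPM in clone 2.9, against 32.1 CPM in both CVP wild type libraries. Clone 2.5 had 38.8 and 41.6 CPM and clone 2.4 had 38.9 and 39.2 CPM, against 31.4 and 30.2 CPM in FoP wild type. The groups did not overlap in either line. Hes6 was 1.39-fold higher in CVP knock-out (log2 0.48 ± 0.10; edgeR adjusted p = 0.00132) and 1.29-fold higher in FoP knock-out (0.36 ± 0.10; adjusted p = 0.0129). The FoP call was lost without FoP wild type duplicate 1 (adjusted p = 0.0669) or duplicate 2 (0.106) and without clone 2.5 (0.0524).

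**Figure D3:**
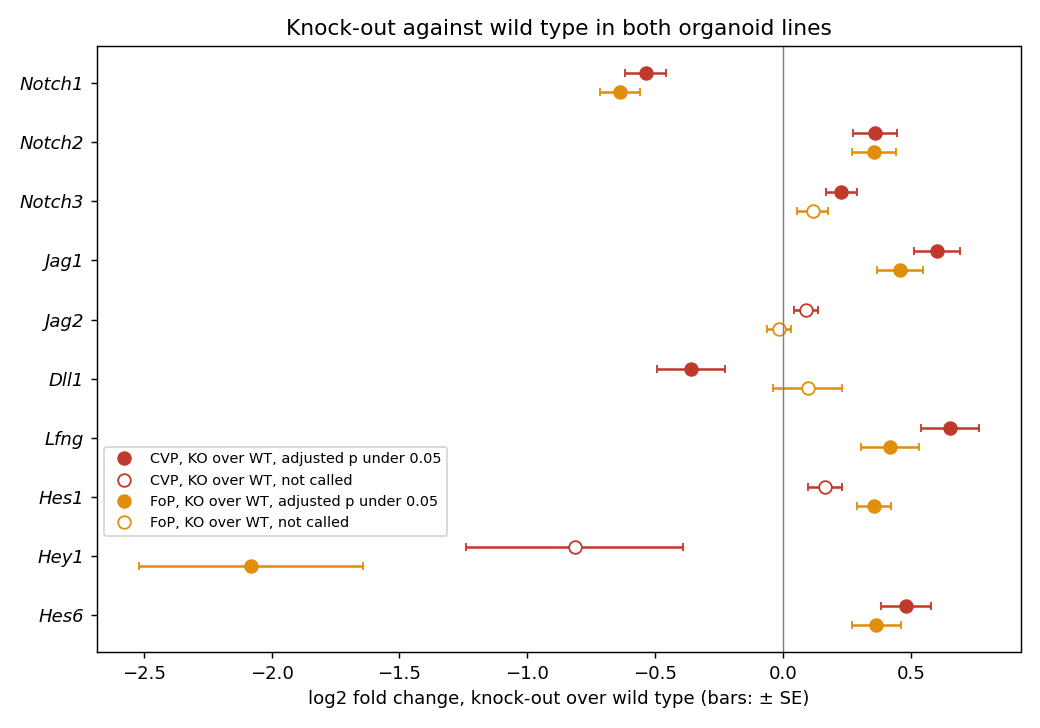
Log2 fold change of each member, knock-out over wild type, in the CVP line (red, upper point) and the FoP line (orange, lower point), with bars of ± SE from the edgeR fit. Filled points passed an adjusted p of 0.05 and open points did not. Notch1 lies left of 0 and Notch2, Jag1, Lfng and Hes6 lie right of it in both lines, and Hey1 has the widest bars.

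Whether the knock-out effect differed between the lines was tested directly as the FoP effect minus the CVP effect. No member was called (0 of 10 in edgeR, 0 in DESeq2 and 0 in limma voom), beside 15.8% of all tested genes in edgeR (7.28% higher and 8.49% lower), and 1 member, Dll1, had an unadjusted p under 0.05. The difference for Dll1 was 0.46 ± 0.19 (95% interval 0.04 to 0.87; adjusted p = 0.131), and it was called without clone 2.5 (0.61; adjusted p = 0.0444) and without duplicate 2 of clone 2.10 (0.55; adjusted p = 0.0398). For Notch1 the difference was -0.10 ± 0.11 (interval -0.35 to 0.15), for Jag1 -0.14 ± 0.12 (-0.41 to 0.13) and for Notch2 -0.01 ± 0.12 (-0.26 to 0.25). The interval of Hey1 was wide, at -2.68 to 0.14 around -1.27. That Notch3, Dll1, Hes1 and Hey1 were called in 1 line alone is therefore no measured difference between the lines.

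Between the FoP and CVP wild type cultures no member was called (0 of 10 in edgeR, 0 in DESeq2, 0 in limma voom), beside 6.68% of all tested genes (3.77% higher and 2.91% lower), and 4 members had an unadjusted p under 0.05. The 2 libraries of each culture did not overlap for any of the 10 members, 2 above and 8 below, beside 59.2% of tested genes (30.7% above and 28.5% below). Notch1 averaged 453 CPM in FoP wild type and 386 CPM in CVP wild type (log2 0.23 ± 0.09; edgeR adjusted p = 0.158), and Hes1 114 and 130 CPM (-0.18 ± 0.08; 0.165). Notch2 had 96.7 and 93.4 CPM in FoP wild type, against 112 and 110 CPM in CVP wild type (-0.22 ± 0.10; 0.193), and it was called without clone 2.5 (-0.23; adjusted p = 0.0452). Notch3 was at 115 and 130 CPM (-0.17 ± 0.07; 0.160). Hey1 averaged 7.44 ± 3.37 CPM in FoP wild type and 15.7 ± 2.37 CPM in CVP wild type (SD, n = 2 each), a change of -1.08 ± 0.51 that did not pass (adjusted p = 0.247). With 1 culture per line, line and culture cannot be told apart.

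Clones of 1 line can be compared by the spread of their duplicates alone. Between clones 2.10 and 2.9 of the CVP line 1 member was called, beside 5.42% of all tested genes (2.89% higher and 2.54% lower), and 4 did not overlap, 2 above and 2 below, beside 42.9% (21.9% above and 21.0% below). Hes6 averaged 40.0 CPM in clone 2.10 and 49.6 CPM in clone 2.9 (log2 -0.31 ± 0.07; edgeR adjusted p = 0.0131), and the call was lost without duplicate 2 of clone 2.10 (adjusted p = 0.0953) or duplicate 1 of clone 2.9 (0.145). Jag1 averaged 290 CPM in clone 2.10 and 248 CPM in clone 2.9 (0.23 ± 0.08; adjusted p = 0.115), called without duplicate 2 of clone 2.10 (0.34; adjusted p = 0.00769). Between clones 2.5 and 2.4 of the FoP line 1 member was called, beside 7.26% of tested genes (3.53% higher and 3.72% lower), and 7 did not overlap, 3 above and 4 below, beside 53.9% (26.7% above and 27.2% below). Notch2 averaged 110 CPM in clone 2.5 and 133 CPM in clone 2.4 (-0.27 ± 0.06; adjusted p = 0.0139), and leaving out any 1 of these 4 libraries ended the call (adjusted p = 0.0526 to 0.124). Dll1 averaged 35.8 CPM in clone 2.5 and 44.2 CPM in clone 2.4 (-0.30 ± 0.13; adjusted p = 0.212), called without duplicate 1 or 2 of clone 2.10 (0.0216 and 0.0224). Both Notch2 and Hes6 lay above wild type in every clone.

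Ranked by level per length, the members kept much of their order across the 4 groups. Hes1 came first and Jag2 next in all of them, with Hes1 at 98.9 ± 2.35 CPM per kb in CVP knock-out and 88.3 ± 4.81 in wild type, and at 99.5 ± 7.01 in FoP knock-out and 77.7 ± 5.27 in wild type. By the longest coding transcript, Notch1 lay above Jag1 in both wild type groups and below it in both knock-out groups. In CVP knock-out Jag1 had 48.0 ± 5.87 and Notch1 28.0 ± 2.17 CPM per kb, while in CVP wild type Jag1 had 31.6 ± 1.69 and Notch1 40.7 ± 5.01. In FoP knock-out Jag1 had 39.9 ± 1.57 and Notch1 30.7 ± 1.65 CPM per kb, while in FoP wild type Jag1 had 29.1 ± 0.926 and Notch1 47.8 ± 0.0306. Hey1 came last throughout, at 3.68 ± 1.66 CPM per kb in CVP knock-out and 6.48 ± 0.978 in wild type, and at 0.726 ± 0.271 in FoP knock-out and 3.07 ± 1.39 in wild type. Neighbours in the order whose libraries overlapped were Hes6 and Notch1, and Lfng and Notch3, in CVP knock-out, and Notch1 and Hes6, Notch3 and Lfng, and Notch2 and Dll1 in FoP knock-out. The order depends on the length used. With the union of all exons, 14232 bases for Notch1 in place of 9488, Notch1 ranked 7 of 10 in CVP knock-out in place of 5, after Notch3 (18.7 and 18.8 CPM per kb), and Jag1 came before Jag2. In CVP wild type Jag1 (30.5 CPM per kb) then lay above Notch1 (27.1), so Notch1 and Jag1 did not change places in the CVP line. In FoP wild type Notch1 (31.9) stayed above Jag1 (28.0).

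The members lie on 7 chromosomes in GRCm38 (GENCODE M21), each as a protein-coding gene. Notch1 is at chr2:26457903-26516663 and Jag1 at chr2:137081456-137116644, both on the minus strand. Notch2 is at chr3:98013527-98150361 on the plus strand and Hey1 at chr3:8663359-8667256 on the minus strand, and Notch3 and Dll1 are both on chromosome 17 on the minus strand, at chr17:32120820-32166852 and chr17:15367354-15376872. Hes1 is at chr16:30064384-30067796 and Lfng at chr5:140607320-140615545 on the plus strand, and Hes6 at chr1:91411483-91414038 and Jag2 at chr12:112907819-112929776 on the minus strand. The table gives 1 count per gene, so exons and UTRs were not told apart. Of the genes that overlap them with counts in the table, the one over Notch1 on the opposite strand held most, at 36 counts or fewer in a library. The lincRNA that overlaps Dll1 on the opposite strand was not found in the count table by its symbol.

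The rest of the pathway was read from a list of 90 further genes by role, of which 89 were in the table and 71 had enough counts to test. Of these 71, 21 were higher and 19 lower in CVP knock-out, and 20 higher and 13 lower in FoP knock-out, against the same 46.4% and 28.8% of all tested genes. By direction these shares were 23.5% higher and 22.9% lower in CVP, and 13.5% higher and 15.3% lower in FoP. The counts by role below stand beside the same shares, and no role was tested as a set. Their median log2 fold change was -0.08 in the CVP line and 0.02 in the FoP line. Among genes called with a mean of at least 1 CPM, the 12 with the largest changes are given with their values. Genes below that level had larger called changes. In CVP knock-out these reached log2 2.87 in the nuclear activator complex and -2.97 in ligand endocytosis. A few more are named from the counts below, and those were picked after their values were seen.

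Of the enzymes that glycosylate the receptors, 3 of 7 tested were higher and 1 lower in CVP knock-out, beside 23.5% and 22.9% of all tested genes. In FoP knock-out 5 were higher and 0 lower, beside 13.5% and 15.3%. Pofut1, which adds the O-fucose that Lfng extends, averaged 56.4 ± 3.57 CPM in CVP knock-out and 34.9 ± 4.50 CPM in wild type (log2 0.69 ± 0.08; edgeR adjusted p = 3.44e-05), and 48.0 ± 3.15 CPM in FoP knock-out and 31.3 ± 0.928 CPM in wild type (0.62 ± 0.08; 0.000204). Poglut1, which adds O-glucose, was higher by 0.31 ± 0.06 in the CVP line and 0.44 ± 0.06 in the FoP line, and Xxylt1, which adds a xylose to that glucose chain, by 0.47 ± 0.07 and 0.32 ± 0.07. Lfng and Pofut1, successive enzymes on the same sugar, were thus both higher in both lines.

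Of the genes of ligand endocytosis, 1 of 7 was higher and 5 were lower in CVP knock-out, beside 23.5% and 22.9% of all tested genes. In FoP knock-out 1 was higher and 3 were lower, beside 13.5% and 15.3%. The endocytic adaptor Epn2 had 57.7 to 62.3 CPM in CVP knock-out, against 125 and 126 CPM in wild type (log2 -1.06 ± 0.07; edgeR adjusted p = 8.82e-07), and 67.0 to 83.1 CPM in FoP knock-out, against 91.7 and 95.9 CPM (-0.26 ± 0.07; 0.0188). The FoP change of Epn2 was not called without either FoP wild type library. Mib1, the ubiquitin ligase of Delta and Jagged ligands, was lower by a smaller step, at -0.27 ± 0.05 and -0.30 ± 0.05. The ligases of the Neuralized family were split: Neurl1a averaged 5.17 ± 0.469 CPM in CVP knock-out and 1.84 ± 0.0917 CPM in wild type (1.49 ± 0.22; 0.000134), and Neurl1b averaged 1.82 ± 0.365 CPM in FoP knock-out and 6.71 ± 1.58 CPM in wild type (-1.88 ± 0.24; 0.000116). In the other line each had the same direction, with Neurl1a at 0.85 ± 0.22 in FoP and Neurl1b at -0.78 ± 0.24 in CVP. The Neurl1a call in FoP was lost without clone 2.4 or FoP wild type duplicate 1, and the Neurl1b call in CVP without clone 2.10 or either CVP wild type library.

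In the nuclear activator complex 4 of 10 tested were higher and 3 lower in each line. Rbpj, which encodes the DNA-binding partner of all Notch receptors, had 88.9 to 112 CPM in CVP knock-out, against 179 and 190 CPM in wild type (log2 -0.85 ± 0.09; edgeR adjusted p = 9.77e-06). In the FoP line Rbpj had 135 to 149 CPM in knock-out, against 156 and 176 CPM in wild type (-0.22 ± 0.09; 0.0832), and it was called without clone 2.10 or its duplicate 1. It was also called in edgeR with the FoP line fitted alone (adjusted p = 0.0279). The FoP effect minus the CVP effect was 0.64 ± 0.13 for Rbpj (adjusted p = 0.00644), a call that was lost with duplicates summed per culture (adjusted p = 0.184). The Mastermind coactivators diverged, with Maml2 higher by 0.49 ± 0.06 in CVP and 0.41 ± 0.06 in FoP and Maml1 lower by small steps in both (-0.19 ± 0.05 and -0.22 ± 0.05).

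Among corepressors 4 of 13 tested were higher and 5 lower in CVP knock-out, and 3 higher and 2 lower in FoP knock-out. The Groucho family gene Tle2 averaged 13.0 ± 0.670 CPM in CVP knock-out and 5.35 ± 0.00893 CPM in wild type (log2 1.28 ± 0.13; edgeR adjusted p = 8.35e-06), and 9.31 ± 1.09 CPM in FoP knock-out and 5.57 ± 0.747 CPM in wild type (0.74 ± 0.13; 0.000854). The histone deacetylase Hdac1 was at 73.7 ± 4.59 CPM in CVP knock-out and 47.6 ± 1.99 CPM in wild type (0.63 ± 0.07; 1.87e-05). In FoP it was at 0.24 ± 0.07, a call lost without either FoP wild type library, without clone 2.5 and in limma voom. Ncor1, a nuclear corepressor, was lower in both lines, at -0.40 ± 0.05 and -0.24 ± 0.05.

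Of protease and gamma-secretase genes, 2 of 10 tested were higher and 2 lower in CVP knock-out, and 3 higher and 0 lower in FoP knock-out. Nicastrin, Ncstn, a gamma-secretase subunit, was higher in both (0.34 ± 0.05 and 0.38 ± 0.05), and the main receptor protease Adam10 was not called (-0.05 ± 0.06 and 0.00 ± 0.06). Genes of receptor turnover had 2 of 7 higher and 0 lower in CVP and 2 higher and 1 lower in FoP. Of Nrarp and the Deltex genes, 3 of 5 tested were higher in CVP knock-out and 1 in FoP, with 0 lower in either. Nrarp, a Notch target that acts back on the receptor's intracellular domain, averaged 6.44 ± 0.870 CPM in CVP knock-out and 4.12 ± 0.0956 CPM in wild type (log2 0.64 ± 0.14; edgeR adjusted p = 0.00235), and 4.24 ± 0.172 CPM in FoP knock-out and 4.33 ± 0.0611 CPM in wild type (-0.03 ± 0.14; 0.893).

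**Figure D4:**
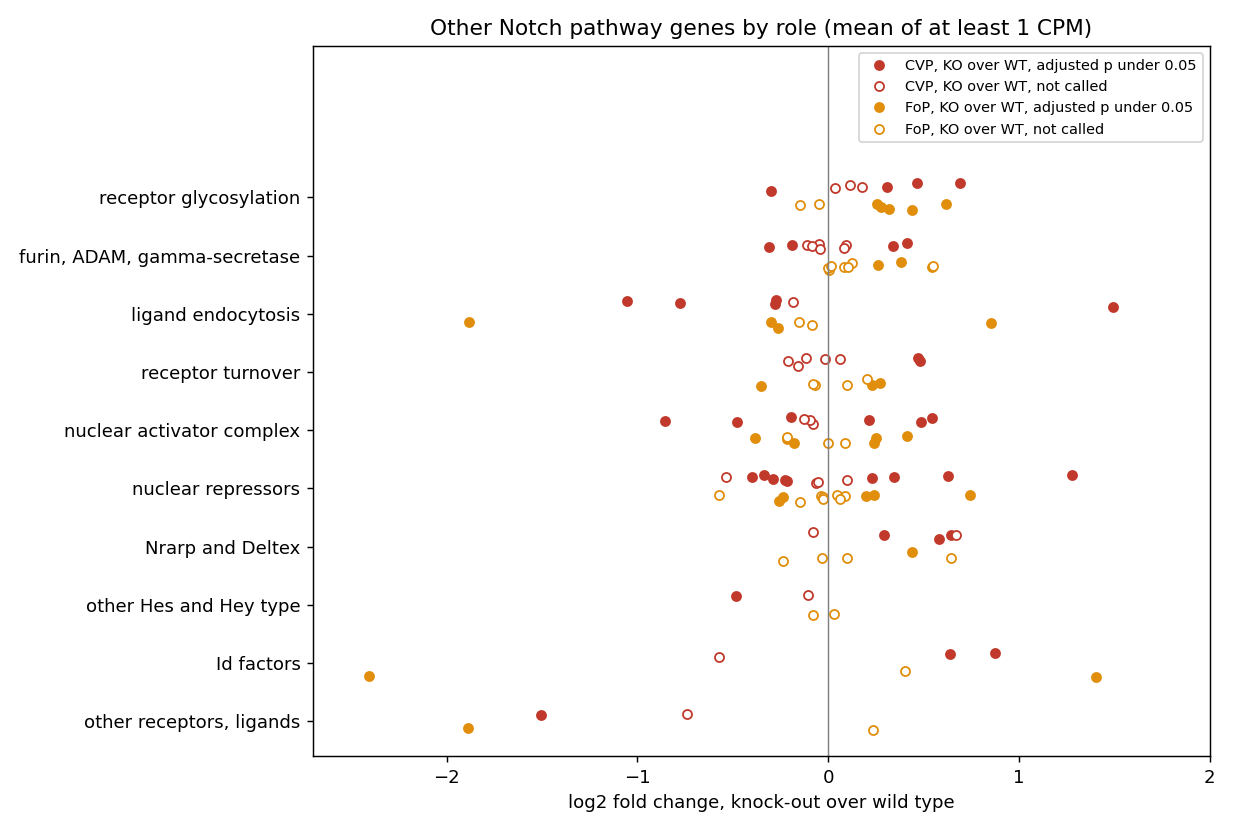
Log2 fold change, knock-out over wild type, of the other Notch pathway genes with a mean of at least 1 CPM, grouped by role, in the CVP line (red) and the FoP line (orange). Each point is a gene; filled points passed an adjusted p of 0.05 in edgeR, and points are shifted vertically at random within a role for legibility. Glycosylation genes lie mostly right of 0 and ligand endocytosis genes mostly left of it.

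Of 11 Id and proneural genes 4 were tested, with 2 higher and 0 lower in CVP knock-out and 1 higher and 2 lower in FoP knock-out. Id genes encode helix-loop-helix proteins that cannot bind DNA and that pair with other factors of that class. Id4 had 671 to 748 CPM in CVP knock-out, against 351 and 421 CPM in wild type (log2 0.88 ± 0.11; edgeR adjusted p = 3.27e-05), and 735 to 985 CPM in FoP knock-out, against 317 and 342 CPM (1.41 ± 0.11; 4.68e-06). Id2 averaged 61.8 ± 11.1 CPM in CVP knock-out and 39.6 ± 0.857 CPM in wild type (0.64 ± 0.15; 0.00473), and 38.5 ± 4.50 CPM in FoP knock-out and 29.1 ± 1.42 CPM in wild type (0.40 ± 0.15; 0.0654). The FoP change of Id2 was called without clone 2.10, clone 2.9 or clone 2.4 and without duplicate 1 of any of them. With all FoP libraries kept, it was also called in DESeq2 (adjusted p = 0.0195) and in edgeR's fit of 6 cultures (0.000441). The same was so in edgeR with the FoP line fitted alone (0.0184) and under a stricter count filter (0.0488). Id1 was lower in FoP knock-out, at 1.11 to 1.95 CPM, against 7.80 and 9.20 CPM in wild type (-2.41 ± 0.24; 2.64e-05), while Id1 averaged 3.29 ± 0.897 CPM in CVP knock-out and 4.88 ± 0.135 CPM in wild type (-0.57 ± 0.25; 0.0738). The CVP change of Id1 was called without any 1 of clones 2.10, 2.4 and 2.5 and without duplicate 1 of clone 2.10 or of clone 2.5. With all libraries kept, it was also called in DESeq2 (adjusted p = 0.0467) and in edgeR's fit of 6 cultures (0.0233). The proneural genes Atoh1, Neurog1, Neurog2, Neurog3, Neurod1 and Neurod4, which Hes proteins are known to repress, had at most 3 counts in a library and were not tested.

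Of other receptors and ligands 3 of 8 were tested, with 0 higher and 2 lower in CVP knock-out and 0 higher and 1 lower in FoP knock-out. Dlk2, a membrane protein related to the Delta ligands, averaged 0.539 ± 0.231 CPM in CVP knock-out and 1.53 ± 0.108 CPM in wild type (log2 -1.51 ± 0.35; edgeR adjusted p = 0.00320), and 0.645 ± 0.0908 CPM in FoP knock-out and 2.39 ± 0.544 CPM in wild type (-1.89 ± 0.34; 0.00131). Dll3 had at most 4 counts in a library. Among other Hes and Hey type genes 5 of 9 were tested, with 1 lower in each line, Bhlhe40 in CVP (-0.48 ± 0.13) and Heyl in FoP, where it was at 0 counts in all 4 knock-out libraries and averaged 0.171 CPM in wild type. Hes5, another Notch target, had at most 1 count in a library, and Hey2 at most 6.

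For each member the 3 genes with the most similar pattern were taken by Pearson r of log2 CPM over the 12 libraries, among 10576 genes with a mean of at least 4 CPM. The libraries share cultures, so r describes these 12 libraries only. Jag1 was most like Rhov (r = 0.98), Snx19 (0.98) and Nfix (0.98), and Notch1 most like Nop9 (0.98), Trp53inp1 (0.98) and Kctd3 (0.98). Lfng was most like Fasn (0.98), Ints1 (0.98) and Tuba1a (0.98), Notch2 like Pced1b, Itgb3 and Taok2 (0.97 to 0.96), and Notch3 like F3, Zmynd8 and Prom2 (0.96 to 0.94). Dll1 was most like Gramd3, Ksr1 and Pex6 (0.96 to 0.95), Hes6 like Nr2f6, Tmem238 and Col6a1 (0.95), Hes1 like Plbd2, Ctdsp1 and Fhod3 (0.95 to 0.93), and Hey1 like Rap1gap2, Plppr4 and Kcnk1 (0.94). Jag2, which changed least, had the lowest best match, at 0.90 with Bcl2l12, before Rbm10 and Smarcd1 (0.89).

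Some markers of cell layers and of other cell types differed between knock-out and wild type too. The counts called stand beside 46.4% of all tested genes in the CVP line and 28.8% in the FoP line. In FoP the sums of the suprabasal, immune, taste, nerve and glia, and fibroblast lists overlapped wild type. The summed level of 7 basal layer markers was 15104 to 17834 CPM in CVP knock-out, against 9985 and 10413 CPM in wild type. In FoP knock-out it was 13749 to 16174 CPM, against 12428 and 12510 CPM in wild type. In CVP 4 of the 7 were called higher and 2 lower, and in FoP 3 higher and 0 lower. Krt5, Krt14 and Col17a1 make up most of this sum, and with Itgb4 they averaged higher in CVP knock-out. The other basal markers averaged lower in CVP knock-out than in wild type. These were Krt15 (8.35 and 22.1 CPM), Trp63 (410 and 519 CPM) and Itga6 (747 and 836 CPM). Of 9 suprabasal markers 8 were tested, with 1 called higher and 5 lower in CVP knock-out (median log2 fold change -1.15) and 0 higher and 3 lower in FoP knock-out (-0.35). Krtdap, a gene of differentiating keratinocytes, had 0.602 to 1.13 CPM in CVP knock-out, against 28.8 and 28.9 CPM in wild type, and Krt13, a keratin of the suprabasal layers of the mouth, had 1.57 to 6.68 CPM, against 28.6 and 48.6 CPM. Both are named after their values were seen, as is Krt6a, which makes up most of the sum over the 9 markers of 935 to 1201 CPM in CVP knock-out, against 833 and 1036 CPM in wild type. That sum was 1196 to 1704 CPM in FoP knock-out, against 1347 and 1451 CPM in wild type. Of 8 immune markers 3 were tested, with 0 higher and 3 lower in CVP knock-out and 0 higher and 2 lower in FoP knock-out. The sum over all 8 was 10.2 to 18.1 CPM in CVP knock-out, against 103 and 108 CPM in wild type. It was 38.0 to 66.7 CPM in FoP knock-out, against 65.4 and 69.5 CPM, mostly H2-Ab1, which epithelial cells can also express. Lyz2, a gene of macrophages and of some glands, was at 0 counts in all 8 knock-out libraries, against means of 23.0 CPM in CVP wild type and 4.14 CPM in FoP wild type. Of 10 taste markers 3 were tested, with 0 higher and 2 lower in CVP and 0 higher and 1 lower in FoP, and the sum over all 10 was 15.1 to 19.6 CPM in CVP knock-out, against 24.1 and 25.2 CPM, and 18.6 to 20.6 CPM in FoP knock-out, against 19.4 and 21.5 CPM. Of 9 endothelial markers 3 were tested, with 1 higher and 1 lower in CVP and 1 higher and 0 lower in FoP, and the sum over all 9 was 2.17 to 3.16 CPM in CVP knock-out, against 1.95 and 2.22 CPM, and 2.35 to 3.65 CPM in FoP knock-out, against 1.78 CPM or less. Of 7 nerve and glia markers 4 were tested, with 3 higher and 0 lower in CVP and 0 called in FoP, and all 7 summed to 2.34 to 6.51 CPM in CVP knock-out, against 1.57 and 2.06 CPM, and to 1.70 to 2.71 CPM in FoP knock-out, against 2.28 and 2.99 CPM. Of 8 fibroblast markers 5 were tested, with 1 higher and 1 lower in each line, and all 8 summed to 5.49 to 9.31 CPM in CVP knock-out, against 5.40 and 5.44 CPM, and to 4.65 to 6.71 CPM in FoP knock-out, against 3.95 and 5.90 CPM. The part of these shifts in the values of the Notch genes was not tested.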

How the data were processed

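The data were raw counts per gene in 12 libraries, a table deposited by the authors and used as deposited; per the labels' protocols, RNA was prepared with a Qiagen kit and libraries with a stranded TruSeq mRNA kit. Per the submitters' processing notes, STAR, featureCounts and the hg38 genome were used, with no version given; the symbols are those of mouse genes. Whether counting used strand was not found in the labels or notes, so reads of antisense genes may be mixed in. Of low values, 2 and 4 (20289 and 10030 cells) were more frequent than 1 and 3 (20007 and 6626), so counts halved and rounded were an alternative.

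Depth was 59260920 to 73568640 counts per library. Genes were filtered with filterByExpr over 4 groups (line by genotype), then scaled (TMM) and tested by edgeR 4.0.16's quasi-likelihood method (R 4.3.3) over all 12 libraries, with Benjamini-Hochberg adjustment over 17076 genes and a threshold of 0.05. Clones were compared in a fit of 6 cultures. SE is the fold change over the root of F, an approximation, and intervals are 95%. Alternatives included DESeq2 1.42.0 and limma 3.58.1 (voom, culture as random block). The knock-out against wild type tests were run on simulated counts, drawn as independent libraries with no culture or clone effect and few changed genes. That simulation cannot check errors that come from duplicates sharing a culture.

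The members and gene lists were chosen with earlier results of these data known. All members are named. Of the other pathway genes, the 12 with the largest absolute change in either line were named, among those called with a mean of at least 1 CPM.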

Additional observations from a re-analysis of the deposited data

Results flagged for a closer look

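Hes6 in clone 2.5 duplicate 2 stood at 41.6 CPM, apart from the other 3 FoP knock-out libraries, which lay close together at 38.8 to 39.2 CPM. Pofut1 in clone 2.10 duplicate 1 stood at 61.8 CPM, apart from the other 3 CVP knock-out libraries. Chance flags about 1 in 20 groups of 4, and 2 of 44 groups tested stood out in this way.

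By the edgeR test of the FoP effect minus the CVP effect, 7 of the 12 pathway genes named were called. Those 12 were picked for a large change in either line, so this count is no share of the pathway. Of all 71 other pathway genes tested, these 12 included, 6 were called higher and 6 lower. That stands beside 15.8% of all tested genes (7.28% higher and 8.49% lower). The difference was -1.83 for Id1 (adjusted p = 0.00590), 0.79 for Epn2 (0.00108), 0.64 for Rbpj (0.00644), -0.39 for Hdac1 (0.0181), 0.53 for Id4 (0.0271), -0.68 for Nrarp (0.0345) and -1.10 for Neurl1b (0.0489), all on the log2 scale. The calls for Id1, Epn2 and Rbpj held with any 1 library left out, but were lost with duplicates summed per culture (adjusted p = 0.206, 0.184 and 0.184). Those for Hdac1, Id4, Nrarp and Neurl1b were each lost without FoP wild type duplicate 1 or 2, among other libraries, and in limma voom with culture as a block (adjusted p = 0.0561, 0.0898, 0.108 and 0.102) and with duplicates summed (0.273, 0.230, 0.346 and 0.280).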

How the results depend on the processing

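The count of members called was 7 in each line. It was 3 in CVP (Notch1, Jag1 and Lfng) and 1 in FoP (Notch1) with duplicates summed per culture, which leaves 2 residual degrees of freedom, and 0 in both lines and both clone comparisons against a 2-fold change. Of the other pathway genes, 18 in CVP and 3 in FoP were called with duplicates summed, and 0 and 3 against a 2-fold change. With no filter 2 members were called between the CVP clones and 2 between the FoP clones. In a fit of 6 cultures 1 member, Notch2, was called between the wild types. Without clone 2.5, 1 member, Dll1, was called for the difference of effects and 1, Notch2, between the wild types. With 1 library left out at a time, members called ranged from 5 to 8 in CVP, 3 to 8 in FoP, 0 to 1 for the difference of effects, 0 to 0 between the wild types, 0 to 1 between the CVP clones and 0 to 2 between the FoP clones, and other pathway genes called from 31 to 43 in CVP and 16 to 36 in FoP. The lowest FoP count of members, 3 (Notch1, Jag1 and Hes1), came without FoP wild type duplicate 2. No called change of a member or named gene turned its sign under any alternative run, while values that were not called did, such as the Notch2 difference of effects in 11 of 26; the cause of these shifts was not tested. Over all genes, calls in CVP ranged from 510 (2-fold change) to 9095 (6 cultures) around 7929, and in FoP from 187 to 6426 around 4921. For the difference of effects 2692 genes were called in edgeR, 1422 in limma voom and 0 in edgeR with duplicates summed, where 2663 had an unadjusted p under 0.05. Deviations of same-numbered libraries correlated at -0.06 to 0.11 over 15 pairs of cultures, taken over all tested genes. The highest value was between clones 2.10 and 2.9. Every member except Notch3 shifted the same way from duplicate 1 to duplicate 2 in both of these clones. Whether the numbers mark libraries handled together was not tested. With the replicate block 7 members were called in CVP, 7 in FoP, 0 for the difference of effects and 1 between the clones of each line, and the Neurl1b difference of effects was not called (adjusted p = 0.0685).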
